A study of Mus musculus with 20 samples.

Results

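The HoxA cluster was examined in dorsal root ganglia (DRG), the paired clusters of sensory neurons, satellite glia and Schwann cells beside the spinal cord. The genes were those of paralog groups 2 to 13, namely Hoxa2, Hoxa3, Hoxa4, Hoxa5, Hoxa6, Hoxa7, Hoxa9, Hoxa10, Hoxa11 and Hoxa13. They were chosen by name, and these 10 genes corresponded to 11 of the 37620 Ensembl identifiers in the expression table, because Hoxa3 has 2. Of the 11 identifiers, 9 were among the 14529 that reached a mean of 1 RPKM (reads scaled to transcript length in kilobases and to library size) in at least 1 group and were tested. Hoxa4 and Hoxa13 did not reach it. RNA sequencing was carried out on whole ganglia of C57Bl6 mouse embryos at embryonic stage E18.5, shortly before birth, with no treatment or genetic change given in the labels. Each of 10 donors, 5 male and 5 female, gave 1 library of the lumbar ganglia L4-5 and 1 of the ganglia L6-S1, here called sacral as in the labels. Spinal level and sex together made 4 groups of 5 libraries. The ganglia were not sorted or dissociated, so each value is an average over all cells of the dissected tissue.

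Hox genes encode homeodomain transcription factors that give cells along the body axis their regional identity. Within a cluster the genes lie in order of their paralog number, and low numbers are switched on early and anteriorly while high numbers follow later and more posteriorly. A gene of the same number in the HoxB, HoxC or HoxD cluster is a paralog, and paralogs often act together. Between lumbar and sacral levels of the trunk the genes of groups 10 and 11 are known for setting the identity of lumbar and sacral vertebrae. The comparison of L6-S1 with L4-5 within each donor asked which HoxA genes still differed between adjacent ganglia shortly before birth.

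Depth ranged from 19606265 to 39678967 recovered reads per library. The genes of mitochondrial ribosomal RNA (rRNA) took 17.8% to 61.0% of them. The sensory neuron markers used to check the tissue were detected, with 12 of 12 past the filter, and none of the 10 with whole reads was at 0 in any library. The labels name no batch. Apart from a male title with an extra digit, the numbers ending the sample titles fall in separate ranges for males and females. What these numbers stand for is not stated, and anything that goes with them cannot be told apart from sex.

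All HoxA genes lie on the minus strand of chromosome 6. In the mm9 build they extend from position 52112350, the end of Hoxa2, to position 52210874, the start of Hoxa13. The cluster also holds the gene of a microRNA, miR-196b, which lies between the main exons of Hoxa9 and Hoxa10 and whose known targets include Hox transcripts. The sequences that follow are shown because they belong to the pair of genes whose expression differed between the levels, Hoxa7 and Hoxa11. The promoter windows are from RefSeq (GRCm38.p6) and run from 250 bases before to 50 bases after the annotated start. Capitals mark a match to TTTATG, the letters recognised by the caudal-type (CDX) homeodomain proteins, which are known to switch on Hox genes along the body axis.
Hoxa7 promoter, chr6:52218524-52218823, minus strand: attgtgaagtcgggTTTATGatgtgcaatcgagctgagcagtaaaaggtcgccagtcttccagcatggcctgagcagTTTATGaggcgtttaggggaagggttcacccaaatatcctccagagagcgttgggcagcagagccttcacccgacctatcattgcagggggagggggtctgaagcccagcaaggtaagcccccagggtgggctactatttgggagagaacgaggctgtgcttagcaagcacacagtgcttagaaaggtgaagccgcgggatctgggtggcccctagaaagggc
Hoxa11 promoter, chr6:52245761-52246060, minus strand: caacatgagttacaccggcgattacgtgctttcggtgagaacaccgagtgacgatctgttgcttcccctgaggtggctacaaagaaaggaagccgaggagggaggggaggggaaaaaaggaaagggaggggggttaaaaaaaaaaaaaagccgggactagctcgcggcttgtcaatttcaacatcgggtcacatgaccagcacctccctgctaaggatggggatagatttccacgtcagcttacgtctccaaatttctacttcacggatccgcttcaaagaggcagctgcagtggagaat

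RefSeq gave 10 such windows for 9 of the 10 genes, Hoxa10 having 2 starts. Hoxa4 had none in the table. The Hoxa7 window held 2 matches to TTTATG, which began 236 and 173 bases before the start, and it was the only HoxA window of the 10 with this motif. Of all 32851 mouse promoter windows of the same length, 11.85% held it on either strand. The other motifs searched, on both strands, were TGATTNAT (PBX-HOX), TATAAA (the TATA box) and GGGCGG (the GC box of SP1). TGATTNAT was found in the window of Hoxa2 alone, against 3.22% of all windows. TATAAA was found in 1 of the 10 windows, the second start of Hoxa10, against 13.62% of all windows. GGGCGG was found in 4 of the 10, those of Hoxa6, Hoxa9, Hoxa10 and Hoxa13, against 35.66%, and its matches overlapped each other in Hoxa6. The Hoxa11 window held none of the 4 motifs. The GC content of the windows ranged from 45.67% in Hoxa2 to 81.0% in Hoxa13, with a median of 56.5% beside 52.67% over all windows. The ratio of observed to expected CpG was 0.405 in Hoxa7 and 0.787 in Hoxa11, beside a median of 0.384 over all windows. These matches describe the letters of the windows, and binding was not measured. The CDX genes Cdx1, Cdx2 and Cdx4 had no value in any library.

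The mature miR-196b-5p is shown with its seed, bases 2 to 8, in capitals, because the complement of this seed recurs in the Hoxa7 transcript. RefSeq places it at chr6:52230129-52230150 on the minus strand (GRCm38.p6). The sites are the DNA letters of 3′ untranslated regions (3′ UTRs) in GENCODE M1, with the complement of the seed, ACTACCT, in capitals.
miR-196b-5p: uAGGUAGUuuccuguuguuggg
Hoxa7 site at base 310: ggcacagccaaaatACTACCTa
Hoxa7 site at base 347: agaggcactcccaaACTACCTa
Hoxa7 site at base 479: aaaccatgatcaatACTACCTa
Hoxa7 site at base 500: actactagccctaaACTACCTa
Hoxa9 site at base 337: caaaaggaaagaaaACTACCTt

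Hoxa7 held 4 such sites in a 3′ UTR of 1226 bases. Hoxa4, Hoxa5 and Hoxa9 held 1 each, and the other 6 HoxA genes held 0. Among 19915 genes, each taken by its longest 3′ UTR, 5.72% held at least 1, with a median length of 893 bases. The hairpin gene of miR-196b had 16 reads over the lumbar and 9 over the sacral libraries, and the mature microRNA was not measured. The sites are a description of sequence, and no test related them to expression.

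Between the levels, expression of 2 of the 9 tested identifiers differed, Hoxa7 and Hoxa11, in opposite directions. Of all 14529 genes tested, 6.73% were called in this comparison, 2.7% higher and 4.03% lower in sacral ganglia. Hoxa7 was lower in the sacral than in the lumbar ganglia of every donor, and Hoxa11 was higher in every donor. Over all tested genes, 2.85% had the same sign in 10 of 10 donors. The other 7 identifiers did not pass the threshold of 0.05 for the adjusted p-value (limma, Benjamini-Hochberg adjustment over all tested genes). The median difference over the 9 members was 0.28 on the log2 scale, beside -0.05 over all tested genes. Differences are given throughout as sacral minus lumbar in log2 RPKM, with the standard error (SE) of the fit.

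**Figure D1:**
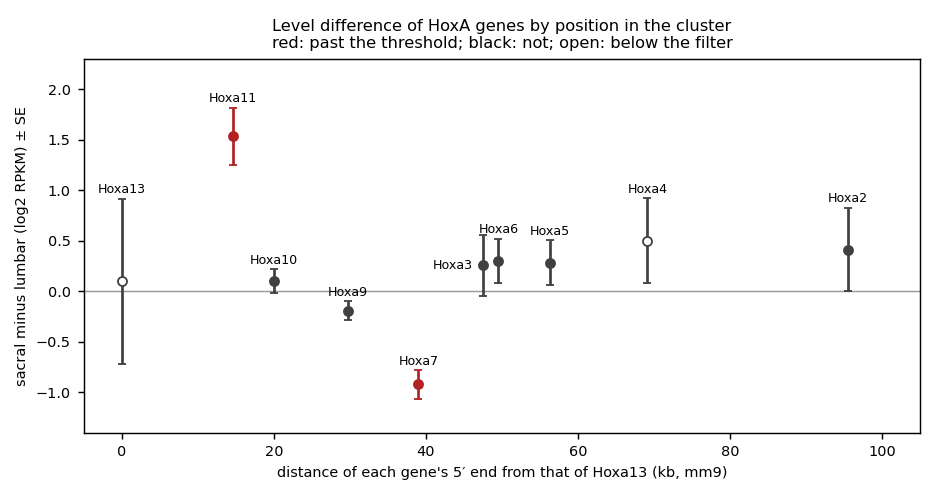
Level difference of each HoxA gene, sacral minus lumbar in log2 RPKM, against the distance of its 5′ end from that of Hoxa13 in kilobases. Error bars are SE of the limma fit for filled points and SE over 10 donor differences for the open points, Hoxa4 and Hoxa13, which were below the filter; Hoxa11 at 1.53 and Hoxa7 at -0.92 were past the threshold, and Hoxa9 and Hoxa10 between them were at -0.19 and 0.10.

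Hoxa2, which is known for the identity of the second branchial arch and of hindbrain segments, ranged from -1.61 to 1.37 log2 RPKM in the lumbar libraries, with a median of -0.53. In the sacral libraries it ranged from -2.60 to 1.90, with a median of 0.10. The groups overlapped almost entirely, and the difference of 0.41 ± 0.41 (SE, n = 10 donors) did not pass the threshold (adjusted p = 0.559). The 95% confidence interval of the difference ran from -0.45 to 1.27. Hoxa2 reached the filter only through sacral females, where its mean was 0.33 log2 RPKM.

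Hoxa3, known for its part in the thymus and parathyroid glands, was represented by ENSMUSG00000079560, of 6566 exon bases. It ranged from -1.04 to 1.39 in lumbar libraries, with a median of -0.63. It ranged from -1.82 to 1.44 in sacral libraries, with a median of 0.14. The values overlapped, with a difference of 0.26 ± 0.30 (SE, adjusted p = 0.623). Of its exon bases 53.5% are shared with other annotated genes, so its level is uncertain. The second identifier of Hoxa3, ENSMUSG00000059723, shared 100% of its exon bases with Hoxa2, the first identifier and an opposite-strand transcript. Its values did not resolve into whole reads, and its difference of 0.51 ± 0.55 (SE, adjusted p = 0.590) is given for completeness.

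Hoxa4 stayed below the filter, with 7 to 53 reads in each lumbar library and 7 to 54 in each sacral library. Its mean was -1.22 ± 0.75 log2 RPKM (SD, n = 10) in lumbar and -0.72 ± 0.99 (SD, n = 10) in sacral ganglia. It was higher in sacral ganglia in 7 of 10 donors, and an exact two-sided sign-flip permutation test over the donor differences gave p = 0.277. The donor differences had a mean of 0.50 ± 1.33 (SD, n = 10), and a level difference of Hoxa4 was not detected.

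Hoxa5, which is known for the lung and the cervicothoracic skeleton, ranged from 0.63 to 2.20 in lumbar libraries, with a median of 0.998. In sacral libraries it ranged from 0.26 to 2.87, with a median of 1.42. Hoxa6, its neighbour, ranged from 0.76 to 2.04 in lumbar libraries, with a median of 0.97, and from 0.06 to 2.82 in sacral libraries, with a median of 1.48. For both genes the sacral range enclosed the lumbar range. The differences were 0.28 ± 0.22 (SE, adjusted p = 0.443) for Hoxa5 and 0.30 ± 0.22 (SE, adjusted p = 0.403) for Hoxa6, each higher in sacral ganglia in 7 of 10 donors. Neither gene shares exon bases with another annotated gene.

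Hoxa7 had the highest mean of the cluster at both levels. In the lumbar libraries it lay between 2.53 and 3.59 log2 RPKM, with a median of 3.23, from 273 to 1211 reads. In the sacral libraries it lay between 1.57 and 2.68, with a median of 2.33, from 229 to 715 reads. All but 1 of the lumbar libraries were above the highest sacral one, and the exception was lumbar donor M5, at 2.53. The sacral libraries of F3 and F10, both at 2.68, reached into the lumbar range. Within donors the fall was smallest in M7, at -0.30, and largest in M8, at -1.98. The fitted difference was -0.92 ± 0.14 (SE, n = 10 donors, adjusted p = 0.000673), which is 1.89-fold lower in sacral ganglia. The 95% confidence interval ran from -1.22 to -0.63. An exact two-sided sign-flip permutation test gave p = 0.00195, the smallest that 10 donors allow. With the mean of fibroblast and meninges or of glia markers as a covariate, which moved with the level, the difference was -0.60 in both fits and did not pass (adjusted p = 0.149 and 0.179).

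Hoxa9, a regulator of blood progenitors and of the thoracolumbar skeleton, lay between 1.02 and 1.92 in the lumbar libraries, with a median of 1.51. In the sacral libraries it lay between 1.002 and 1.69, with a median of 1.27. The groups overlapped in most libraries, although the value was lower in sacral ganglia in 8 of 10 donors. The difference was -0.19 ± 0.09 (SE, adjusted p = 0.218), with a 95% confidence interval from -0.39 to 0.0046. With a weight estimated for each library it was -0.27 (limma adjusted p = 0.0391), in a fit that called 2998 of all 14529 genes.

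Hoxa10, known for turning rib-bearing into lumbar vertebrae and for the uterus, lay between 1.11 and 1.81 in lumbar libraries, with a median of 1.46. It lay between 1.07 and 2.07 in sacral libraries, with a median of 1.60. It was higher in 5 donors and lower in 5. The difference was 0.10 ± 0.12 (SE, adjusted p = 0.611), and its 95% confidence interval of -0.14 to 0.34 held neither the difference of Hoxa7 nor that of Hoxa11. It shares no exon bases with other genes and had 160 to 557 reads in a lumbar library and 219 to 429 in a sacral one.

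Hoxa11, known for the sacral vertebrae, the forearm and the kidney, was low at both levels. In the lumbar libraries it lay between -2.57 and -0.77 log2 RPKM, with a median of -1.60, from 14 to 45 reads. In the sacral libraries it lay between -1.39 and 1.08, with a median of 0.04, from 30 to 131 reads. The ranges overlapped because the sacral libraries of F3 and M7, at -1.39 and -1.30, were as low as lumbar libraries of other donors. The lumbar libraries of these 2 donors were the lowest of all, at -2.57 and -2.46, so the direction held within each donor. The rise within a donor went from 0.72 in M1 to 2.58 in F8. The fitted difference was 1.53 ± 0.29 (SE, n = 10 donors, adjusted p = 0.00383), which is 2.89-fold higher in sacral ganglia, with a 95% confidence interval from 0.93 to 2.13. Hoxa11 reached the filter only through sacral females, where its mean was 0.17 log2 RPKM. Its mean was -0.19 in sacral males, -1.53 in lumbar males and -1.55 in lumbar females. In a fit without the filter the difference was also 1.53 (limma adjusted p = 0.00618). Without donors M5 and F7, whose mitochondrial rRNA shares were the highest at each level, the difference was 1.46 (adjusted p = 0.0671) and that of Hoxa7 was -0.93 (adjusted p = 0.00938). With the same marker means as covariates Hoxa11 was at 1.32 and 0.86 and did not pass (adjusted p = 0.160 and 0.317).

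Hoxa13, known for the digits and the urogenital tract, was close to absent from the libraries. It had 0 reads in 5 of 10 lumbar and 7 of 10 sacral libraries, and 17 reads over all lumbar and 22 over all sacral libraries. A library with 0 reads allows up to 3. Of the 3 libraries above 3 reads, lumbar M5 had 11, sacral F3 had 7 and sacral F9 had 13. The donor differences had a mean of 0.10 ± 2.59 (SD, n = 10) and an exact sign-flip permutation test gave p = 0.908, so no level difference was detectable at this depth.

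**Figure D2:**
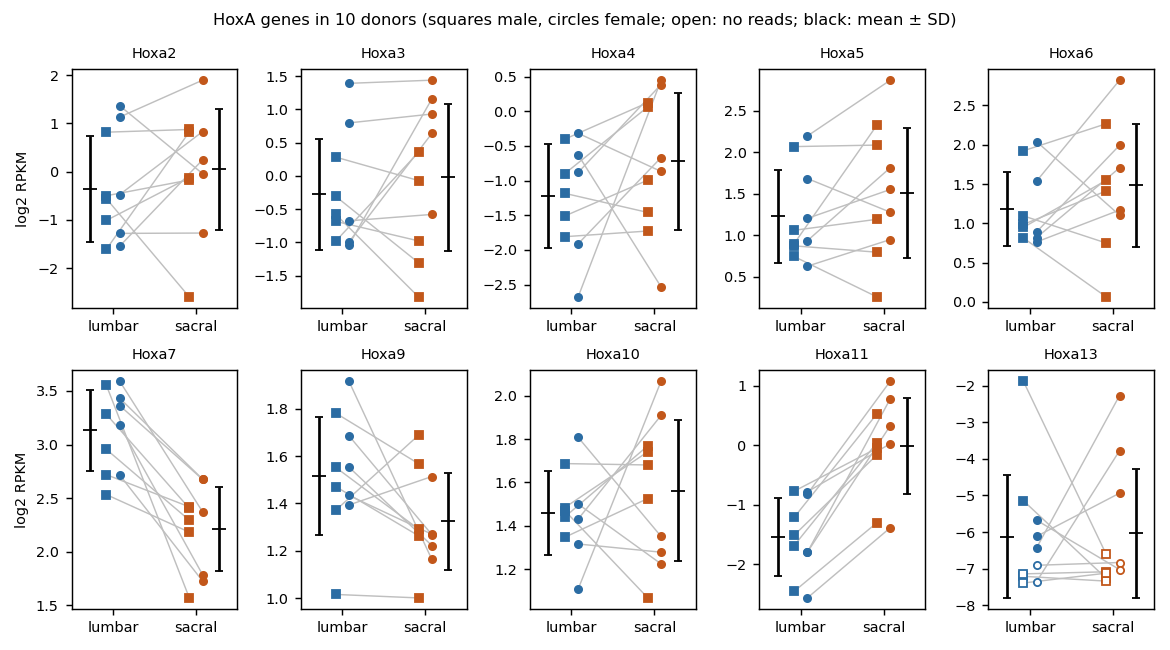
Log2 RPKM of each HoxA gene in the lumbar and the sacral library of each donor, joined by a line, with squares for males and circles for females. Open symbols are libraries with 0 reads and the black bars are mean ± SD of 10 libraries; every line falls for Hoxa7, from a lumbar mean of 3.13 to a sacral mean of 2.21, and every line rises for Hoxa11, from -1.54 to -0.01.

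The order of the levels within a library, per length of transcript, was compared in pairs of neighbours. In lumbar ganglia Hoxa7 stood above Hoxa9 by 1.62 ± 0.29 log2 RPKM (SD, n = 10), in 10 of 10 libraries. Hoxa9, Hoxa10, Hoxa5 and Hoxa6 followed, and each step among them was smaller than its spread over libraries. Hoxa6 stood above Hoxa3 by 1.46 ± 0.52 (SD, n = 10), and each step from Hoxa3 to Hoxa2, the second Hoxa3 identifier, Hoxa4 and Hoxa11 was again smaller than its spread, which says nothing of genes further apart in the order. In sacral ganglia Hoxa7 still led by its mean, above Hoxa10 by 0.65 ± 0.56 (SD, n = 10), but in 8 of 10 libraries when these 2 genes were compared. Among all HoxA genes Hoxa7 was the highest in 7 of 10 sacral libraries, Hoxa5 in 2 and Hoxa6 in 1. Hoxa10, Hoxa5, Hoxa6 and Hoxa9 came next, with each step smaller than its spread. Hoxa11, which was below Hoxa4 in the lumbar order, stood between Hoxa2 and Hoxa3 in the sacral order, but its steps to both, 0.06 ± 0.73 and 0.01 ± 0.89 (SD, n = 10), were within their spread. The share of Hoxa7 in the summed HoxA RPKM was 40.5 ± 9.86% (SD, n = 10) in lumbar and 24.2 ± 9.10% (SD, n = 10) in sacral ganglia. The share of Hoxa11 was 1.68 ± 0.75% and 5.24 ± 2.14% (SD, n = 10 each). The summed RPKM itself had a median of 22.8 in lumbar and 19.2 in sacral libraries, with ranges of 18.46 to 27.2 and 15.3 to 34.7.

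**Figure D3:**
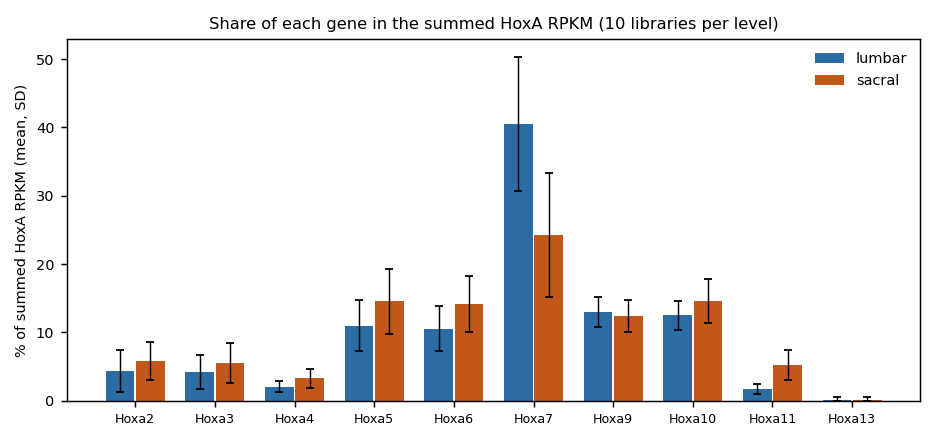
Share of each gene in the summed RPKM of the HoxA genes, in percent, as mean and SD over 10 lumbar and 10 sacral libraries, with Hoxa3 counted once by its longer identifier. Hoxa7 made up 40.5% of the lumbar and 24.2% of the sacral sum, and Hoxa11 1.68% and 5.24%.

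Overlapping transcripts limit what the values of both called genes measure, because strand use in counting is not stated. Hoxa7 shares 586 of 2877 exon bases with 2700086A05Rik on the opposite strand. That transcript was also lower in sacral ganglia, by -0.58 on the log2 scale (adjusted p = 0.0143), in 8 of 10 donors. Hoxa11 shares 1038 of 2689 exon bases with its antisense RNA Hoxa11as, which had 147 reads over the lumbar and 243 over the sacral libraries. Hoxa11as was below the filter and its mean donor difference was 1.06 ± 1.502 (SD, n = 10), higher in 7 donors (exact sign-flip permutation test, p = 0.0313). Reads of a gene and its antisense partner cannot be told apart here. Hoxa9 shares 198 exon bases with RP23-329P9.11 on the same strand, whose difference of 1.07 did not pass the threshold (adjusted p = 0.0641). Of the genes flanking the cluster, 3 were tested and 2 were lower in sacral ganglia in all 10 donors. Snx10, a sorting nexin of endosomes, differed by -0.49 ± 0.08 (SE, adjusted p = 0.00160), and Skap2, an adaptor of Src-family kinases, by -0.34 ± 0.10 (SE, adjusted p = 0.0430).

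Paralogs in the other clusters showed where the HoxA genes differed from their counterparts. Of 28 HoxB, HoxC and HoxD genes, 18 were tested, and 5 were higher and 5 lower in sacral ganglia. Their median difference was -0.06. The lower ones were Hoxc6 (-0.69), Hoxb7 (-0.66), Hoxb8 (-1.30), Hoxc8 (-1.73) and Hoxb9 (-1.13). The higher ones were Hoxc10 (0.48), Hoxd10 (1.77), Hoxd11 (2.19), Hoxc11 (2.84) and Hoxc12 (5.59), all as log2 differences. Hoxc11 and Hoxc12 were low in lumbar ganglia, at -2.03 ± 1.13 and -3.17 ± 2.25 log2 RPKM (SD, n = 10). The sizes of their differences are therefore uncertain. Hoxc11 and Hoxc12 reached the filter only in sacral ganglia, where their means were 0.81 and 2.41 log2 RPKM. Hoxb8 reached it only in lumbar ganglia, at a mean of 0.05 beside -1.25 in sacral ganglia. For these genes the filter itself favoured a difference between the levels. Hoxa7 fell with Hoxb7, and Hoxa11 rose with Hoxc11 and Hoxd11, while Hoxa9 and Hoxa10 did not pass the threshold where Hoxb9, Hoxc10 and Hoxd10 did. The paralog Hoxd9 did not pass either (0.08, limma adjusted p = 0.740), and Hoxc9 was not among the genes tested by limma.

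The difference between paralogs was tested within donors for 8 pairs of groups 7, 9, 10 and 11, chosen after their values were seen, with an exact two-sided sign-flip permutation test and adjustment over the 8 pairs. The difference of Hoxa10 was below that of Hoxd10 in 10 of 10 donors, by -1.67 ± 0.68 (SD, n = 10, exact permutation p = 0.00195, adjusted p = 0.0104). Against Hoxc10 the gap of -0.38 ± 0.42 (SD, n = 10) missed the threshold (exact permutation p = 0.0293, adjusted p = 0.0586) and passed it without donor F7 (exact permutation adjusted p = 0.0156). The difference of Hoxa9 was above that of Hoxb9 by 0.94 ± 0.62 (SD, n = 10), in 9 of 10 donors (exact permutation p = 0.00391, adjusted p = 0.0104). Its gaps to Hoxc9 and Hoxd9, 0.55 and -0.27, did not pass (exact permutation p = 0.178 and 0.0957, adjusted p = 0.203 and 0.128). Hoxa11 rose less than Hoxc11, by -1.31 ± 1.09 (SD, n = 10), in 9 of 10 donors (exact permutation p = 0.00391, adjusted p = 0.0104). Over 12 alternative settings this gap ran from -1.46 to -0.51, and its size is uncertain because Hoxc11 was low in lumbar ganglia. The gap between Hoxa11 and Hoxd11 was -0.66 ± 0.94 (SD, n = 10, exact permutation p = 0.0606, adjusted p = 0.0969), with an adjusted p of 0.0234 by the same exact test without donor F8. That between Hoxa7 and Hoxb7 was -0.26 ± 0.89 (SD, n = 10, exact permutation p and adjusted p = 0.383).

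**Figure D4:**
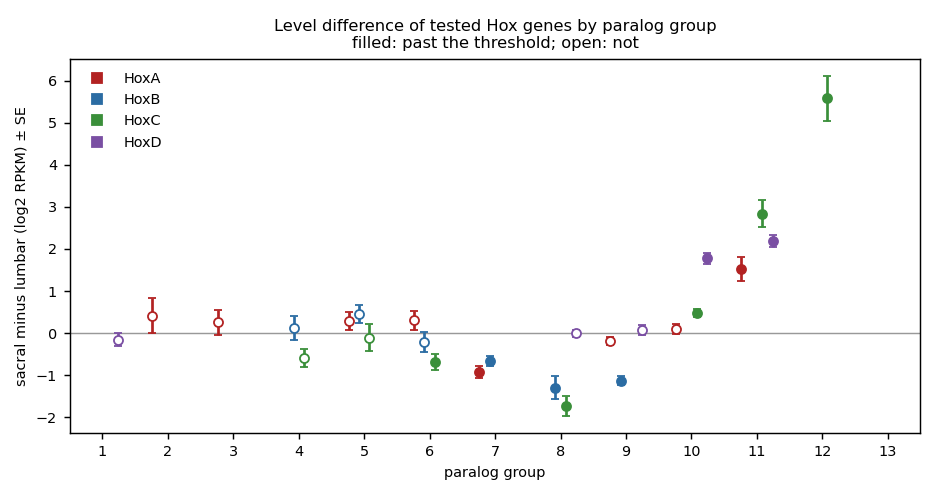
Level difference of every tested Hox gene, sacral minus lumbar in log2 RPKM with SE, by paralog group and coloured by cluster, filled where past the threshold. The HoxA points pass at groups 7 and 11 (-0.92 and 1.53), HoxB points at 7, 8 and 9, HoxC points at 6, 8, 10, 11 and 12, and HoxD points at 10 and 11.

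Other genes of the pathway were described from lists. Of 8 tested TALE cofactors, the homeodomain partners of Hox proteins (Meis, Pbx and Pknox), 0 were called in limma with Meis1 at -0.33 (adjusted p = 0.0939), lower in 10 of 10 donors, and Pknox1 at 0.24 (adjusted p = 0.0765), higher in 10 of 10. Of 27 tested Polycomb and trithorax genes, which keep Hox clusters silent or active, 0 were called, with a median of 0.06.

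The genes whose values were most like those of the called members over the 20 libraries were taken by Pearson correlation of log2 RPKM, as a description. All points share library depth and composition. Both levels were pooled, so genes with the same level difference as the member rank high. Each gene named here was itself called between the levels, in the direction of its member. For Hoxa7 they were Cacng2, an auxiliary subunit of AMPA receptors (r = 0.86), Tm7sf2, a sterol reductase (r = 0.86), and Trpm8, the cold-sensing channel (r = 0.84). For Hoxa11 they were Ddit4l (r = 0.88), the phospholipid-binding protein Anxa1 (r = 0.81) and the ferritin receptor Scara5 (r = 0.80).

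Male and female embryos did not differ in any HoxA gene past the threshold. In lumbar ganglia 0 of 9 members were called by limma, beside 0.33% of all genes (0.0895% higher in females), and 0 had an unadjusted p under 0.05. In sacral ganglia 0 of 9 were called, beside 1.01%, and 1 had an unadjusted p under 0.05. That gene was Hoxa3, which ranged from -0.58 to 1.44 in sacral females, with a median of 0.93, and from -1.82 to 0.36 in sacral males, with a median of -0.98. The groups overlapped, and the female minus male difference was 1.48 ± 0.52 (SE, n = 5 per sex, limma adjusted p = 0.180). With the mitochondrial rRNA share as a covariate it was 1.27 (limma adjusted p = 0.0365), in a fit that called 705 of all 14529 genes. In this covariate fit 0 members were called without M1, M3, M5 or M7. The lowest limma adjusted p of any member was then 0.0536, 0.0784, 0.131 and 0.1025. On quantile-normalized values and without the donor block, 1 member was called with this covariate. The longer identifier of Hoxa3, given here, reached the filter only through sacral females, with a mean of 0.72 log2 RPKM. Its means were -0.76 in sacral males, -0.45 in lumbar males and -0.10 in lumbar females.

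The level difference was also taken within each sex. The difference of Hoxa7 was -0.83 ± 0.20 in males (SE, n = 5, limma adjusted p = 0.0637) and -1.01 ± 0.20 in females (SE, n = 5, limma adjusted p = 0.0185). That of Hoxa11 was 1.34 ± 0.41 in males (SE, n = 5, limma adjusted p = 0.154) and 1.72 ± 0.41 in females (SE, n = 5, limma adjusted p = 0.0478). These calls within a sex depended on the fit. Without the donor block neither gene passed in females (adjusted p = 0.140 for Hoxa7 and 0.303 for Hoxa11), and with the block as fixed donor terms neither did (adjusted p = 0.0507 and 0.0668). Of all alternatives, 9 of 25 lost the call of Hoxa7 in females, among them leaving out F7, F9 or F10 (adjusted p = 0.116, 0.0783 and 0.0636). For Hoxa11 in females 18 of 24 lost it, among them no filter, quantile normalization, median centring and leaving out any donor except M7 (adjusted p = 0.0543 to 0.192 over those donors). In males Hoxa7 passed in 4 of 25, with library weights, with the stricter filter, with the mitochondrial rRNA share as a covariate and without F8 (adjusted p = 0.0133, 0.0342, 0.0324 and 0.0406). With library weights 5 of 9 members passed in females, beside 1871 of all 14529 genes in that fit. There Hoxa9 was at -0.41 (limma adjusted p = 0.0399). The overlapping identifiers of Hoxa3 were at 1.37 and 2.34 (limma adjusted p = 0.0298 and 0.0497), beside Hoxa7 and Hoxa11. Both Hoxa3 identifiers reached the filter only through sacral females, as did Hoxa11, so the filter itself favoured a rise in this comparison. The second Hoxa3 identifier had means of 0.23 log2 RPKM in sacral females, -1.61 in sacral males, -1.43 in lumbar males and -0.96 in lumbar females. In the main fit, with the donor block and no library weights, 0.461% of all genes were called in males (0.172% higher and 0.289% lower in sacral ganglia). In females it was 0.881% (0.186% higher and 0.695% lower). The difference between the sexes in the level effect was tested as an interaction, and 0 of 9 members and 0 of all 14529 genes were called by limma, with 470 genes and 0 members at an unadjusted p under 0.05. The interaction was -0.17 ± 0.28 (SE) for Hoxa7 and 0.38 ± 0.57 (SE) for Hoxa11, with an adjusted p of 0.995 for every member.

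The libraries differed in composition, and several HoxA genes moved with it. Each increase of 10 percentage points in mitochondrial rRNA share went with a higher value of Hoxa2 (0.74 ± 0.15), Hoxa3 (0.55 ± 0.11), Hoxa5 (0.44 ± 0.08) and Hoxa6 (0.39 ± 0.08), as slopes with SE in a fit that also held the 4 groups. With the second identifier of Hoxa3, at 0.67 ± 0.24 and not past the threshold without M8, F3 or F7 (adjusted p = 0.0560, 0.0714 and 0.102), 5 of 9 members had a positive slope past the threshold, beside 16.3% of all genes. Hoxa7 had a negative slope of -0.20 ± 0.06 (SE, limma adjusted p = 0.00905), beside 36.3% of all genes with a negative one. Hoxa9 and Hoxa10, at -0.006 and -0.0027, and Hoxa11, at 0.29 (limma adjusted p = 0.0988), did not pass. The lowest and the highest mitochondrial rRNA shares were 20.5% and 61.0% in lumbar and 17.8% and 49.5% in sacral libraries, with medians of 29.1% and 35.9%. In this fit the level differences were -0.91 for Hoxa7 (adjusted p = 0.000280) and 1.51 for Hoxa11 (adjusted p = 0.00651).

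**Figure D5:**
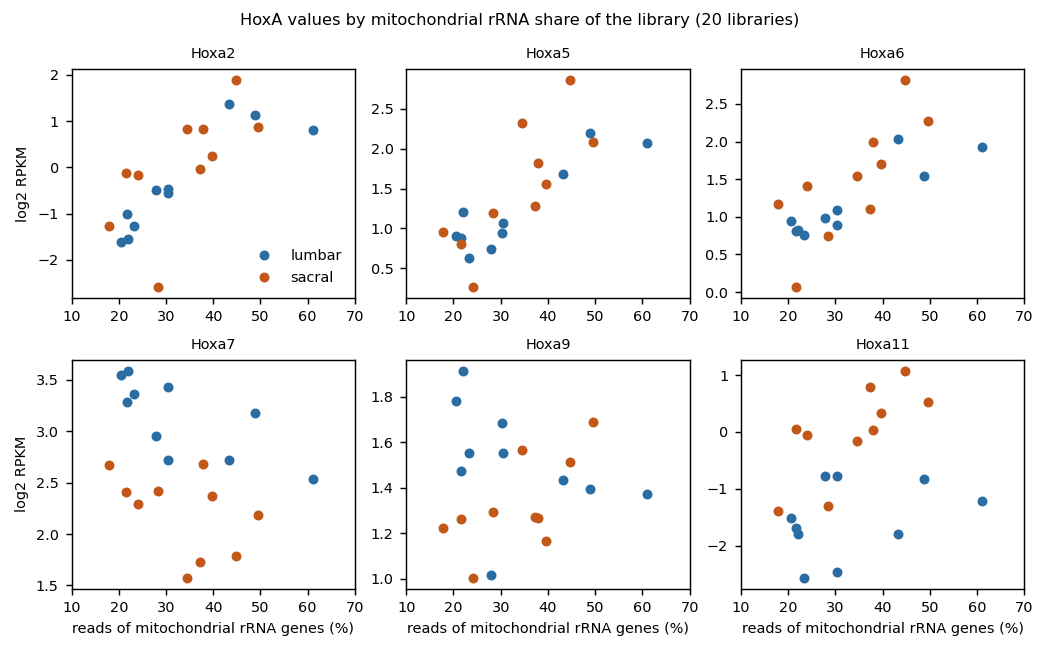
Log2 RPKM of 6 HoxA genes against the percentage of reads from the mitochondrial rRNA genes in each of 20 libraries, coloured by level. Hoxa2, Hoxa5 and Hoxa6 are higher in libraries with a larger share, with slopes of 0.74, 0.44 and 0.39 log2 RPKM per 10 percentage points, while for Hoxa7 and Hoxa11 the lumbar and sacral points are set apart over most of the axis.

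Markers of the other cell types in the dissected tissue moved with the level as well. Of 12 tested fibroblast and meninges markers, 7 were higher in sacral ganglia (Col1a1, Col1a2, Ogn, Pdgfra, Twist1, Foxc1 and Foxc2) and 0 lower. Their summed RPKM was 242 to 364 in lumbar males, 229 to 508 in lumbar females, 342 to 455 in sacral males and 322 to 689 in sacral females. Of 11 tested Schwann cell and satellite glia markers, 5 were lower (among them Egr2, S100b, Mbp and Fabp7) and 0 higher. Their sums were 459 to 556, 403 to 506, 304 to 419 and 261 to 422 in the same order of groups. Endothelial markers were higher in 2 of 4 tested genes (Tek and Cdh5), cartilage markers in 1 of 6 (Col2a1), sensory neuron markers were lower in 1 of 12 (Snap25), and 0 of 9 skeletal muscle, 0 of 5 red cell and 0 of 1 spinal cord markers were called by limma. Of 9 spinal cord markers with whole reads, 6 were at 0 reads in some library (Mnx1 and Nkx2-2 in 19 of 20, Chat in 17, Dbx1 in 15, Olig2 in 11 and Olig1 in 4), while Nkx6-1, Pax6 and Slc6a5 had reads in each. Among the fibroblast and meninges markers Twist2 was at 0 reads in 1 library, and no glia marker was at 0 in any. The median level difference was -0.31 for the 12 sensory neuron markers and -0.34 for the glia markers. It was 0.53 for the fibroblast and meninges markers, beside -0.05 over all tested genes. In whole ganglia fewer cells of a type and less RNA per cell cannot be told apart.

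Fits with the mean of a marker list as a covariate were added after these values were seen. With the fibroblast and meninges mean 0 of 9 members were called by limma, with 3 at an unadjusted p under 0.05, and with the glia mean 0 were called, with 2 at an unadjusted p under 0.05. The calls over all genes were 99 and 113 in these fits, in place of 978, and the marker means themselves differed between the levels. Within the groups, 5 members had a positive slope on the fibroblast and meninges mean past the threshold (beside 9.57% of all genes), namely Hoxa2, both Hoxa3 identifiers, Hoxa5 and Hoxa6. On the glia mean 4 had a negative slope (beside 5.28% of all genes), namely Hoxa2, Hoxa3, Hoxa5 and Hoxa6. The slopes of Hoxa7 and Hoxa11 passed for neither mean, at -0.61 and 0.40 for the fibroblast and meninges mean and 0.78 and -1.64 for the glia mean. The part of cell composition in the level differences was not tested further.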

How the data were processed

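RNA was measured in 20 libraries of whole E18.5 DRG, a lumbar and a sacral library from each of 10 donors. The authors amplified total RNA (Ovation RNA-Seq System v2), prepared Nextera XT libraries, aligned reads to mm9 with Subread (unique reads, Ensembl 67) and counted them with featureCounts. Strand use in counting is not given in the sources used here. The authors scaled by TMM (edgeR 3.12.1), applied voom (limma 3.26.9, R 3.2.2) and deposited the values as log2 RPKM in 1 table. All 20 libraries had the same median in the deposited values, 0.930 log2 RPKM over the genes with a value in the library. From these values, reads per gene were recovered with exon lengths of GENCODE M1 (mm9). Within 0.05 of a whole read lay 98.27% of values, and 10 of the 11 HoxA identifiers gave whole reads. A blank was read as 0 reads and set to the log2 RPKM of 0.5 reads. No pseudocount was added. Reads were amplified without molecular identifiers, so the limit of 3 reads for a count of 0 (95% confidence) covers counting error only.

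Differential expression was fitted with limma 3.58.1 (R 4.3.3, statmod 1.5.0) on all genes with a mean of at least 1 RPKM in 1 or more of the 4 groups, with donor as a block through duplicateCorrelation (consensus 0.342) and eBayes with a trend. P-values were two-sided, adjusted by Benjamini-Hochberg over 14529 genes, with a threshold of 0.05. The fit was tested on simulated data. Donors pair the libraries because both come from 1 embryo by the labels, and the deviations of the pair from their group means correlated between -0.17 and 0.68. Members below the filter were tested by exact sign-flip permutation over 10 donors. Every HoxA gene is named whatever its result, with the called genes of the flanking, paralog and cofactor lists and the 3 most correlated genes of each called member. The members and lists were chosen with earlier results of these data known. Other genes are named as examples seen in the values. Alternatives covered the block, weights, filters, blanks, scaling, the mitochondrial rRNA share, marker means and leaving out donors. Promoter and microRNA sequences are from RefSeq (GRCm38.p6) and 3′ UTRs from GENCODE M1. No protein sequences were used here, and some genes of the lists are not reported here.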

Additional observations from a re-analysis of the deposited data

Results flagged for a closer look

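Within the groups of 5 libraries, 3 HoxA values stood apart from the other 4 libraries of their group by Dixon's test at the 95% level, of 44 groups of values tested. Chance flags about 1 in 20 groups. Hoxa5 was at 2.07 log2 RPKM in the lumbar library of donor M5, with 129 reads, while the other lumbar males lay between 0.75 and 1.06. Hoxa6 was at 1.92 in the same library, with 125 reads, while the others lay between 0.81 and 1.10. This library had the largest mitochondrial rRNA share of all 20, at 61.0%. Hoxa7 was at 1.57 in the sacral library of donor M8, with 241 reads, while the other sacral males lay between 2.18 and 2.42. Without donor M8 the level difference of Hoxa7 was -0.78 (limma adjusted p = 0.00135), beside -0.92 with all donors.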

How the results depend on the processing

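The count of 2 HoxA identifiers called between the levels was obtained without the donor block, with the block as fixed donor terms, and without each donor in turn (2 to 2). It was 3 with a weight for each library, where 2998 of all 14529 genes were called. It was 1 with a stricter filter of 4 RPKM, where Hoxa7 was the sole member tested, 1 without donors M5 and F7, and 0 with the fibroblast and meninges or the glia marker mean as a covariate. In sacral ganglia the count between the sexes was 0, and 1 with the mitochondrial rRNA share as a covariate, where 705 of all 14529 genes were called. With this covariate the count was 0 again without M1, M3, M5 or M7. Without the replicate block, and with it as fixed donor terms, the calls of Hoxa7 and Hoxa11 in females were lost and no other call between the levels, in either sex or between the sexes changed; fixed donor terms cannot give the sex differences within a level, which were not run with them. Leaving out 1 donor moved the level difference from -0.99 to -0.78 for Hoxa7 and from 1.42 to 1.65 for Hoxa11.

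With the fibroblast and meninges mean the level difference turned negative for Hoxa2 (-0.98), both Hoxa3 identifiers (-0.69 and -1.11), Hoxa5 (-0.34), Hoxa6 (-0.46) and Hoxa10 (-0.18), and with the glia mean likewise (-0.95, -0.61, -0.76, -0.58, -0.43 and -0.10); the cause was not tested. None of these passed the threshold for the level difference over both sexes in any fit. Hoxa10 was at -0.014 without M5 and F7, and with 1 donor left out from -0.0010, without F7, to 0.18. Hoxa13 was at -0.0033 on the log2(RPKM + 1) scale and from -0.35 to 0.63 with 1 donor left out. The slope on mitochondrial rRNA share was 0.00029 for Hoxa9 without the block, and 0.013, 0.0011 and 0.019 without M8, F7 and F9; that of Hoxa10 was 0.0050, 0.0051, 0.043, 0.0080, 0.0012 and 0.011 without M1, M3, M5, M8, F7 and F9. None of these slopes passed the threshold. On quantile-normalized values the slopes of Hoxa7 (-0.13) and of the second Hoxa3 identifier (0.39) did not pass. Hoxa10 against Hoxc10 passed on quantile-normalized values and on the log2(RPKM + 1) scale, as did Hoxa11 against Hoxd11 on the latter. Depth limits Hoxa4, Hoxa11 and Hoxa13, with 7 to 54, 14 to 131 and 0 to 13 reads per library.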
